A study of Mus musculus with 14 samples.

Results

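The first 55 Mb of mouse chromosome 7, counted on the mm9 build, hold 822 of the 191271 regions of accessible chromatin in the deposited table. A region was counted as a member where it lies on chr7 and ends at or before position 55000000. The other 3146 regions of chr7 served for comparison, as did stretches of other autosomes. The segment was selected on measured values, namely the low level of chr7 regions in Early libraries relative to Basal ones in earlier results of these data, so the difference of Early from Basal is given as a description. Calls of the fit over all regions are counted there beside their share over all regions, and nothing is read from them. Of the 6 comparisons between groups, only Reactivated against Late uses neither Early nor Basal libraries.

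Accessibility was measured by ATAC-seq in hippocampal nuclei that were stained for Arc, GFP and the neuronal protein NeuN and sorted by fluorescence. The mice were of the strain ArcCreERT2 x R26R-STOP-floxed-eYFP, genotype +/+. In this strain a tamoxifen-dependent Cre under Arc regulatory sequence switches on a yellow fluorescent reporter. Only cells with an active Arc gene around the time of the drug are thus marked. All 4 groups had a foot shock on day 0. Early (n = 3) was collected on day 0. Late (n = 4) was collected on day 5 with no recall of the fear memory, and Reactivated (n = 3) was recalled on day 5, with replicate 1 labelled as collected on day 5, replicate 2 on day 6 and replicate 3 on day 7. Basal (n = 4) carries the same treatment label as Early, and what else separates both groups is not given in the labels. Tissue of 10 to 12 mice was pooled to obtain 10000 nuclei, and the labels do not tie a library to its mice, so the spread behind the p-values is that between libraries and may be technical in part. Gene markers were not looked up, because the regions carry no gene names, and the neuronal label of the nuclei was therefore not checked.

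In ATAC-seq a transposase cuts DNA that is not wrapped in closed chromatin, and accessible regions usually mark promoters, enhancers and other bound sites. Mouse chromosomes have their centromere at one end, and the segment is the part of chromosome 7 next to it. It is rich in genes and known for long arrays of related ones, among them KRAB zinc-finger genes (transcriptional repressors), vomeronasal receptor genes (silent in most neurons) and kallikrein genes (secreted proteases), as well as for the imprinted gene Peg3. In neurons, the immediate early gene Arc is switched on by synaptic activity, and changes of accessibility after activity have been described for many enhancers.

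The table gives RPKM, reads per kilobase of region after scaling by the library's read total. Totals recovered from it were 46134253 to 56251676 reads, and 13.2% to 27.8% of the reads of a library lay in regions. The Early libraries spread widely in this share, at 13.8%, 27.8% and 18.1% for replicates 1, 2 and 3, against 18.4% to 20.02% in Late, 21.3% to 24.0% in Reactivated and 13.2% to 19.3% in Basal. Each RPKM value was divided by the median RPKM of all regions in its library, so that a level of 1 is the level of the middle region of that library. The part of the share of reads in regions in the results below was not tested, except by a fit that holds it as a covariate.

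Regions were sparse on chr7 and most of all in its first 55 Mb. The segment held 14.9 regions per Mb and the rest of chr7 32.3. With 26.0 regions per Mb, chr7 as a whole had the lowest density of the 19 autosomes, below chr17 with 42.1 and far below chr3 with 99.6. Yet of the autosomes it has the most protein-coding genes in the RefSeq table of another build (GRCm38.p6), 2030 in all. The largest stretch without a region inside the segment ran from position 39056641 to 46513295, 7.46 Mb, and was the only stretch of 3 Mb or more between neighbouring regions of any autosome. The next largest within the segment measured 1.16 Mb. The median distance between neighbours was 18346 bases in the segment, 15267 in the rest of chr7 and 6474 on the other autosomes.

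The members resembled other regions in width and mean level but more often lacked reads. Their median width was 498 bases, against 449 in the rest of chr7 and 523 on the other autosomes, and their median level over the 14 libraries was 1.06, against 1.01 and 1.04. No region is listed at 0, and the lowest value equals 1 read. In single libraries 12.0% to 15.7% of members stood at 1 read, against 2.27% to 3.11% of all regions. In all 14 libraries at once 60 of the 822 members (7.30%) did so, compared with 1.68% in the rest of chr7 and 0.688% on other autosomes. Of the 822 members, 660 (80.3%) passed the filter that leaves out the 10% of regions with the lowest mean level, against 88.4% in the rest of chr7 and 90.6% on other autosomes. The members left out enter the levels and the bins of all regions, but no fold change.

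The border at 55000000 falls where almost no reads lie. The last member, chr7:54767029-54767575, stood at 1 or 2 reads in every library. The one before it, chr7:54644886-54645183, stood at the lowest listed value, 1 read, in every library. The first region beyond, chr7:55198652-55198869, stood at 1 to 14 reads, and the next, chr7:55379715-55380013, at 1 read throughout. None of these 4 regions passed the filter on low values.

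In every Early library the members' median level was lower than in any library of the other groups. It was 0.481, 0.465 and 0.565 in Early replicates 1 to 3, that is 0.503 ± 0.0537 (SD, n = 3). In Late it was 0.934, 1.18, 0.928 and 1.07 for replicates 1 to 4, or 1.03 ± 0.122 (SD, n = 4). The members thus stood near the level of the middle region in Late and at about the same level in Reactivated. The Reactivated values were 1.27, 0.997 and 0.982, or 1.08 ± 0.164 (SD, n = 3). In Basal the members were at 1.39, 1.20, 1.49 and 1.41, or 1.37 ± 0.123 (SD, n = 4). Basal thus lay above the middle region in all 4 libraries, and above all Late and Early libraries, while its lowest library was below Reactivated replicate 1. The Early mean was 0.367 times the Basal mean, the Late mean 0.750 times and the Reactivated mean 0.790 times. In such bulk data, fewer nuclei with an open region and less cutting per nucleus cannot be told apart.

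Both quartiles of the members' levels, averaged over libraries, were lowest in Early and highest in Basal. In the Early libraries 93.3%, 92.8% and 89.4% of the 822 members lay below the library's middle level, against 39.8% to 56.7% in Late, 37.0% to 51.3% in Reactivated and 26.0% to 35.2% in Basal. The lower quartile of member levels averaged 0.275 in Early, 0.567 in Late, 0.631 in Reactivated and 0.834 in Basal, and the upper quartile 0.703, 1.45, 1.58 and 1.89 in the same order. The same order held over the 660 members with more than 1 read in every library, a set not identical to the 660 that passed the filter, with mean levels of 0.568 in Early, 1.17 in Late, 1.22 in Reactivated and 1.55 in Basal. Read sums behind these levels were 14879, 25237 and 20603 in Early, 33579 to 42083 in Late, 41551 to 65578 in Reactivated and 35821 to 50252 in Basal. As a share of all reads in regions, the members took 0.167% to 0.210% in Early, 0.371% to 0.480% in Late, 0.352% to 0.485% in Reactivated and 0.465% to 0.572% in Basal.

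The rest of chr7 was also lowest in Early, by less. Its median level averaged 0.776 ± 0.0906 in Early (SD, n = 3), 0.952 ± 0.0540 in Late (SD, n = 4), 1.08 ± 0.0813 in Reactivated (SD, n = 3) and 1.10 ± 0.0683 in Basal (SD, n = 4). The log2 ratio of the members' level to that of the rest of chr7 was below 0 in every Early library, from -0.75 to -0.51, and above 0 in every Basal library, from 0.22 to 0.44. It was 0.03 to 0.24 in Late and -0.08 to 0.11 in Reactivated. Within a library this ratio does not depend on the scaling, so the segment and the rest of its chromosome changed places between Early and Basal.

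**Figure D1:**
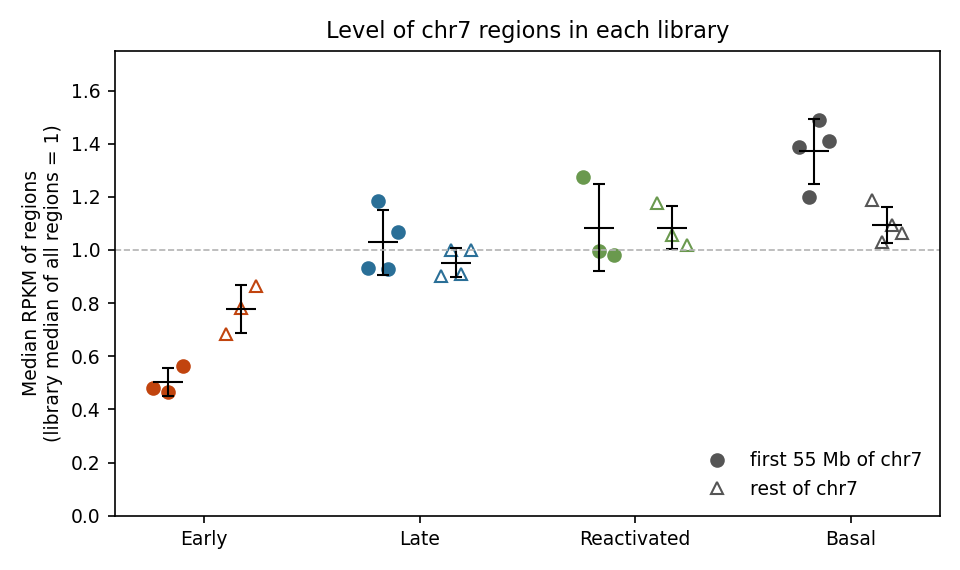
Median level of the regions of the first 55 Mb of chr7 (filled circles) and of the rest of chr7 (open triangles) in each library of Early, Late, Reactivated and Basal; the y axis is RPKM divided by the library's median RPKM of all regions, black bars are group means with SD. The 3 Early circles sit between 0.465 and 0.565, under every circle of the other groups, and all 4 Basal circles sit at 1.20 or above.

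Early against Basal gave lower values at nearly all tested members. Of the 660 members tested, 654 had a negative log2 fold change and the median was -1.15 (middle 50% of members from -1.38 to -0.91), against -0.44 over the 2781 tested regions of the rest of chr7 and -0.00 over all 172143 tested regions. In the limma fit over the whole table, with Benjamini-Hochberg adjusted p under 0.05 as the call, 544 members (82.4%) were called lower and 0 higher. Over all tested regions 6.56% were called lower and 7.95% higher. In the rest of chr7, 682 regions were called lower (24.5%) and 33 higher. Every Early library was below every Basal library at 568 members (86.1%), against 11.4% of all tested regions, and above at 0, against 12.0%. Since this contrast led to the choice of the segment, these counts describe it and add nothing beyond its choice. On the deposited RPKM scale, where the median of all tested regions was 0.23, the members' median was -0.77 and 340 were called lower (51.5%), 0 higher. Over all tested regions 1.45% were called lower and 10.8% higher on that scale.

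Among members that met the rule for naming, those with the largest differences were short regions of 140 to 167 bases with few reads. At chr7:51614856-51615006 (150 bases) the levels were 0.367, 0.502 and 0.705 in Early, 0.662, 1.07, 0.988 and 1.14 in Late, 0.737, 0.731 and 1.36 in Reactivated and 3.73, 3.41, 2.70 and 3.82 in Basal. Basal stood apart from all 10 other libraries there, and the fold change of Early over Basal was -2.25 ± 0.23 (log2 with limma's standard error). These values rest on 3 to 7 reads in Early and 20 to 36 in Basal. At chr7:30102705-30102868 (163 bases) Early had 0.563, 0.132 and 1.02, Late 1.42, 0.791, 1.00 and 1.43, Reactivated 1.66, 1.18 and 1.10, and Basal 3.53, 2.21, 4.97 and 3.51. Again all Basal libraries were above all others, with a log2 fold change of -2.33 ± 0.34 for Early over Basal. At chr7:51697256-51697405 (149 bases) Early had 0.616, 0.506 and 0.406, Late 0.999, 1.30, 1.09 and 1.35, Reactivated 2.97, 1.93 and 2.57, and Basal 2.40, 4.20, 3.13 and 2.68. Here Reactivated overlapped Basal, Late lay between them and Early, and the log2 fold change of Early over Basal was -2.12 ± 0.21. The other regions named by the rule were chr7:52161053-52161193 at -2.14 ± 0.38, chr7:17462342-17462495 at -2.02 ± 0.47 and chr7:34918286-34918453 at -2.004 ± 0.368. Of these, chr7:17462342-17462495 rested most on 1 library, since Early replicate 2 stood there at the lowest listed value, 1 read. Without that library the log2 fold change was -1.35.

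The members of highest mean level, wider regions with many reads, differed by a similar factor as the segment's median. At chr7:25861847-25862482 (635 bases) Early had 1.70, 1.63 and 1.57, Late 3.26, 3.38, 2.89 and 3.47, Reactivated 6.42, 3.99 and 4.54, and Basal 4.14, 3.76, 3.38 and 3.91. Early was below all other libraries by a wide margin, and Reactivated replicate 1 was the highest. Reads there were 59 to 96 in Early and 106 to 169 in Basal. The log2 fold change of Early over Basal was -1.10 ± 0.16. At chr7:20300350-20301623 (1273 bases) Early averaged 1.25 ± 0.332 (SD, n = 3), Late 2.86 ± 0.346 (SD, n = 4), Reactivated 4.25 ± 1.81 (SD, n = 3) and Basal 3.98 ± 0.673 (SD, n = 4). Its log2 fold change of Early over Basal was -1.51 ± 0.23. The other members of this kind, chr7:26052419-26053450, chr7:6314948-6316463 and chr7:48888073-48889309, stood at -1.25 ± 0.20, -1.16 ± 0.20 and -1.18 ± 0.16. In all 5 of these regions every Early library was below every library of the other groups.

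A positive log2 fold change of Early over Basal was seen at 6 of the 660 tested members, and none of them was called. They were named after their values were seen. The 4 at chr7:46971896-46972122 (0.13), chr7:47059810-47060055 (0.06), chr7:47576636-47576871 (0.11) and chr7:47878257-47878463 (0.28) follow the stretch without regions, and the other 2, chr7:35559083-35559674 (0.20) and chr7:35673943-35674260 (0.22), lie close together before it. At chr7:47576636-47576871 the levels were 0.312, 1.69 and 1.80 in Early, 1.90, 1.92, 2.90 and 2.31 in Late, 2.35, 2.27 and 0.923 in Reactivated and 1.19, 0.727, 1.21 and 0.812 in Basal. Early replicate 1 was the lowest of all 14 libraries there and the other Early libraries were above every Basal one.

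Calls lower in Early were counted by tertiles of mean level and width, as a description of the contrast that led to the segment. The test understates changes of low regions, and nothing is read from the order of the tertiles. Cut by the tertiles of mean level over all tested regions, the lowest tertile had 112 of 160 members called lower (70.0%) with a median log2 fold change of -1.02, the middle one 182 of 226 (80.5%) with -1.15, and the highest 250 of 274 (91.2%) with -1.20. The same tertiles over all tested regions had 4.59%, 6.67% and 8.40% called lower. By width, 103 of 164 members (62.8%) of the narrowest tertile were called lower, 224 of 266 (84.2%) of the middle one and 217 of 230 (94.3%) of the widest. Over all tested regions the width tertiles had 5.95%, 5.29% and 8.44% called lower. The medians by width were nearly equal, at -1.13, -1.15 and -1.15.

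**Figure D2:**
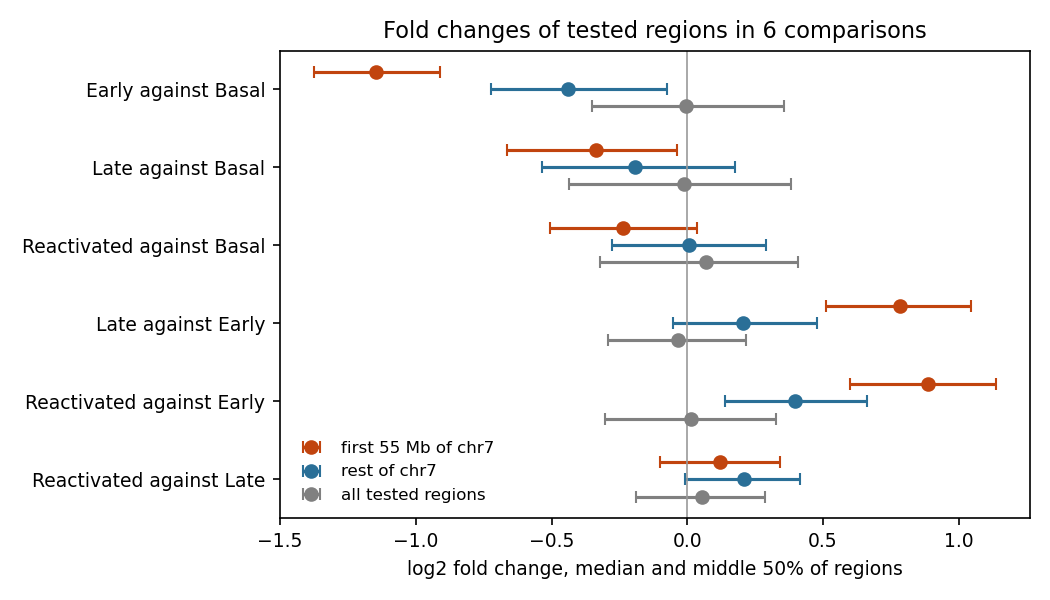
Log2 fold changes of the tested regions in the 6 comparisons, as the median (points) and the middle 50% of regions (bars), for the first 55 Mb of chr7 (660 regions), the rest of chr7 (2781) and all tested regions (172143). The members' medians lie furthest from 0 in the 3 comparisons that hold Early, at -1.15, 0.78 and 0.89. For Reactivated against Early their bar (0.60 to 1.14) overlaps that of the rest of chr7 (0.14 to 0.66). On the deposited RPKM scale, the members' medians of Late and Reactivated against Basal are 0.00804 and 0.13 instead of -0.34 and -0.24.

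Along the chromosome, the difference of Early from Basal was spread over the segment and became smaller past its end. In bins of 5 Mb, 10 bins of the segment held 45 to 148 regions each, and the bin from 40 to 45 Mb held none. In each of these 10 bins the deviation of every Early library, taken as the median over regions of the log2 value minus that region's mean over all libraries, was below that of every Basal library. Early minus Basal was -1.16 to -0.27 with a median of -0.84. In the 20 bins of the rest of chr7 it was -0.64 to -0.03 with a median of -0.41, and in 18 of them every Early library was below every Basal one. With bins of 2.5 Mb, 14 of 14 bins of the segment had Early wholly below Basal.

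Regions at 1 read pull these bin medians towards 0, so the bins were also taken over tested regions only, an addition made after seeing the data. The segment's bins then ranged from -1.31 to -0.85 for Early minus Basal. The lowest were the bins from 15 to 20 Mb (-1.31, 92 regions, 93.5% of them called lower) and from 10 to 15 Mb (-1.30, 25 regions). Those nearest to 0 were the bins on either side of the stretch without regions, from 45 to 50 Mb (-0.85, 34 regions, 52.9% called lower) and from 35 to 40 Mb (-0.86, 67 regions, 64.2%). The last bin of the segment, from 50 to 55 Mb, was at -1.20 over 136 regions, and the next one, from 55 to 60 Mb, at -0.47 over 110 regions. Over tested regions no bin of the rest of chr7 was as low as the segment's highest bin, with 20 bins from -0.75 to -0.02. Over all regions the ranges overlapped, with bins of the segment up to -0.27 and of the rest of chr7 down to -0.64. This contrast led to the choice of the segment, so the step at its end is a description. For Late minus Basal the segment's bins were at -0.44 to -0.03, within the range of the rest of chr7 (-0.44 to 0.13). For Reactivated minus Basal they were at -0.42 to -0.15, which overlapped the rest of chr7 in part (-0.33 to 0.14).

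**Figure D3:**
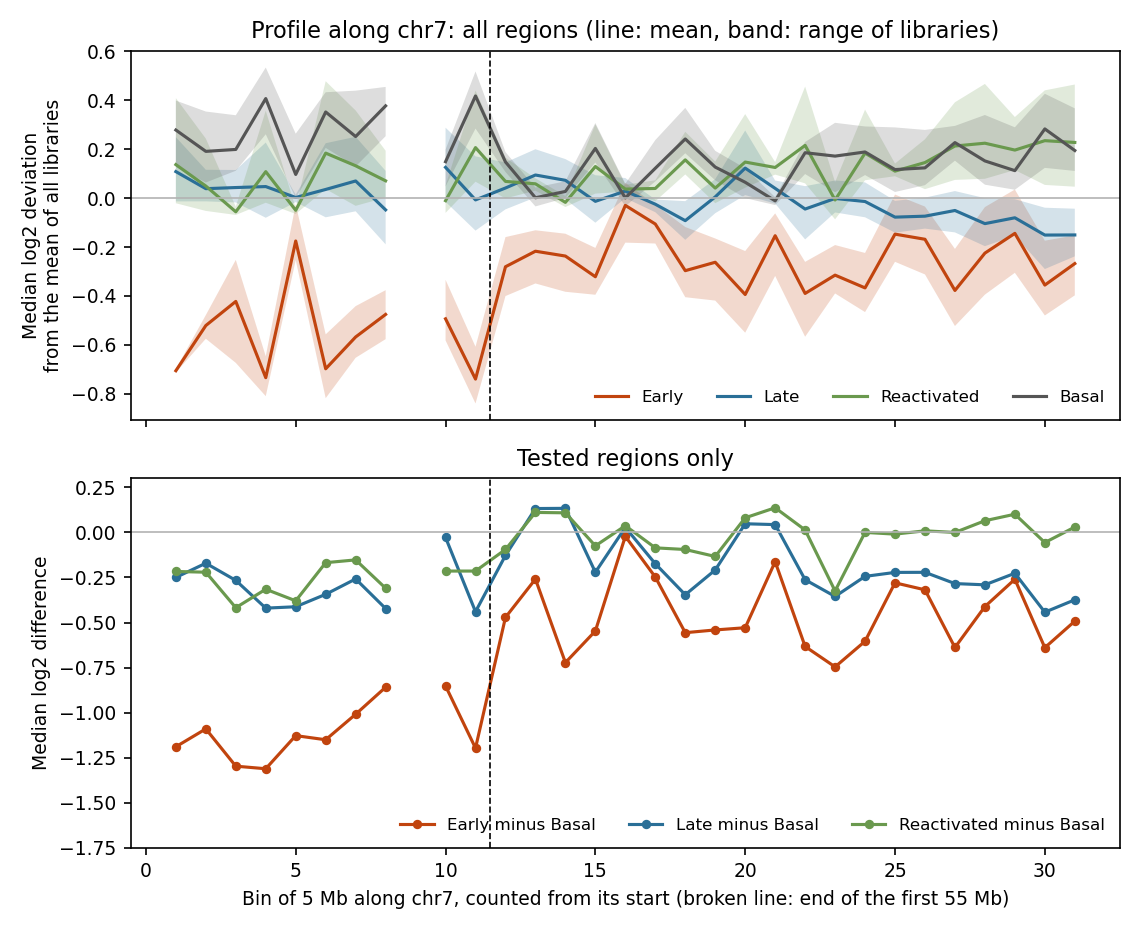
Profile along chr7 in bins of 5 Mb counted from its start. Top: median log2 deviation of all regions of a bin from their mean over all libraries, as group mean (line) and range of libraries (band). Bottom: median log2 difference of each group from Basal over tested regions. The Early line is below all other lines left of the broken line, which marks the end of the first 55 Mb, and its difference from Basal is -1.20 in the last bin of the segment and -0.47 in the next; the gap is the bin with no region.

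No stretch of 55 Mb on another autosome had a like number of regions. The 33 such windows held 1730 to 5612 regions, at least 2.10 times as many as the segment, and 0 of them lay within 0.5 to 2 times its number. The sparsest was the first 55 Mb of chr17, whose median level was 0.675 ± 0.0523 in Early (SD, n = 3), 0.953 ± 0.0756 in Late (SD, n = 4), 1.07 ± 0.113 in Reactivated (SD, n = 3) and 1.08 ± 0.0594 in Basal (SD, n = 4). It was thus low in Early too, but by less than the segment, and the log2 ratio of Early to Basal levels over the 33 windows was -0.68 to 0.19 with a median of 0.05. Bins of 5 Mb of like density were therefore used instead, a choice made after seeing that no window qualified. The 27 such bins lie on 15 other autosomes and held 49 to 144 regions.

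Sparse bins elsewhere were lower in Early as well, but less so and not everywhere. Over the 27 like-density bins Early minus Basal was -0.91 to 0.42 with a median of -0.21, every Early library was below every Basal one in 16 (59.3%) and above in 3. Among the 441 denser bins the median was 0.03 and 134 (30.4%) had Early wholly below Basal. The median level of the segment's bins was 0.468 in Early, 0.989 in Late, 1.05 in Reactivated and 1.27 in Basal, while that of the like-density bins was 0.750, 1.01, 1.03 and 1.00 in the same order. These medians were lower in the segment's bins than in sparse bins elsewhere for Early and higher for Basal, while the ranges of single bins overlapped. With tested regions only, 37 bins were of like density, at -1.05 to 0.51 with a median of -0.24, and 4 of them reached the range of the segment. Of all 471 bins of other autosomes, 5 did so and 0 reached the segment's median of -1.14. These 5 were chr17 from 20 to 25 Mb (-1.05), chr4 from 155 to 160 Mb (-1.04), chr17 from 35 to 40 Mb (-1.02), chr19 from 0 to 5 Mb (-0.91) and chr19 from 5 to 10 Mb (-0.86).

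Across 472 bins of the other autosomes the log2 number of regions in a bin and Early minus Basal went together, with Pearson's r = 0.454 and Spearman's rho = 0.426. For Late minus Early r was -0.627 and rho -0.699. Neighbouring bins and all bins of a library share their source, so these are descriptions. Across the 30 bins of chr7 r was 0.242 and rho 0.310 for Early minus Basal.

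**Figure D4:**
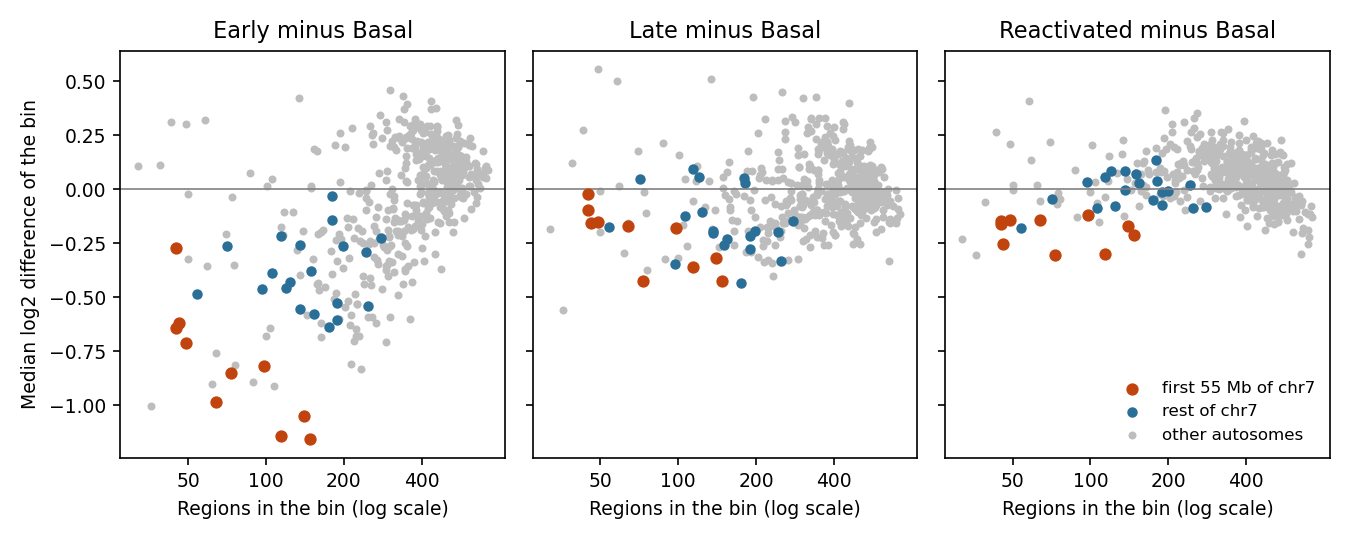
Median log2 difference of each 5 Mb bin from Basal against the number of regions in the bin (log scale), for Early, Late and Reactivated; orange points are bins of the first 55 Mb of chr7, blue points the rest of chr7, grey points other autosomes. Sparse bins tend to be low in Early, where the 10 bins of the segment reach from -1.16 to -0.27, and the 3 panels share 1 scale.

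Late against Basal showed a smaller difference in the same direction. It uses the Basal libraries that led to the choice of the segment, so its counts are given as a description. The p-values of single regions against Basal below do not account for that choice. The members' median log2 fold change was -0.34, against -0.19 in the rest of chr7 and -0.01 over all tested regions. In the limma fit with Benjamini-Hochberg adjusted p under 0.05, 178 of 660 members (27.0%) were called lower and 16 higher, whereas 16.3% of all tested regions were called lower and 14% higher. The rest of chr7 had 549 of 2781 regions called lower and 153 higher. Late and Basal did not overlap at 192 members with Late lower (29.1%; 17.3% of all regions) and at 19 with Late higher (15.6% of all regions). The direction of the median depends on the scaling: on the deposited RPKM scale it was 0.00804, with a median of 0.27 over all tested regions, and 70 members were called lower (10.6%) and 36 higher (5.45%). On that scale 6.07% of all tested regions were called lower and 23.5% higher. With the 4 Late libraries averaged to 1 sample, 0 members and 0 of all tested regions were called in either direction (members, 110 lower and 5 higher at an unadjusted p under 0.05).

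Single members went further. At chr7:53121480-53121705 (225 bases) Late had 0.147, 0.358, 0.527 and 0.759, against 2.49, 1.60, 2.61 and 1.93 in Basal. The groups were well apart, with a log2 fold change of -1.85 ± 0.34 (limma, Benjamini-Hochberg adjusted p = 0.00175). Among the other named falls, chr7:51614856-51615006 stood at -1.60 ± 0.21 (limma, adjusted p = 0.000454) and chr7:52954905-52955445, with 540 bases the widest of them, at -1.35 ± 0.24 (limma, adjusted p = 0.00146). The remaining 3, chr7:17462342-17462495, chr7:30102705-30102868 and chr7:37480273-37480446, were at -1.56, -1.41 and -1.41. Of these, chr7:17462342-17462495 lost its call in the fit that held each library's share of reads in regions (limma, adjusted p = 0.0532).

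A few members went the other way in Late. At chr7:54094237-54094635 (398 bases) Late had 2.08, 3.16, 1.71 and 2.22, against 0.860, 0.953, 1.27 and 0.959 in Basal. All Late libraries were above all Basal ones, with a rise of 0.99 ± 0.20 on the log2 scale (limma, Benjamini-Hochberg adjusted p = 0.00249). Early had 0.461, 0.406 and 0.607 and Reactivated 1.08, 1.58 and 1.22 there, so Late was the highest group. The other named rises were chr7:6078715-6079014 at 0.80 ± 0.20 (limma, adjusted p = 0.00909) and chr7:47576636-47576871 at 1.03 ± 0.35 (limma, adjusted p = 0.0368). For chr7:47576636-47576871 the call was lost without any single Late library and without Basal replicate 2 or 4 (limma, adjusted p = 0.0536 to 0.0988). It was also lost in the fit that held each library's share of reads in regions, where the log2 fold change was 0.74 (limma, adjusted p = 0.134).

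Reactivated against Basal differed less. It uses the same Basal libraries, so its counts too are given as a description. The members' median log2 fold change was -0.24, against 0.01 in the rest of chr7 and 0.07 over all tested regions. In the limma fit with Benjamini-Hochberg adjusted p under 0.05, 82 of 660 members (12.4%) were called lower and 3 higher, beside 10.0% lower and 10.0% higher among all tested regions. The share called lower was thus near that of all regions, while few members were called higher. Groups without overlap were found at 140 members with Reactivated lower (21.2%; 14% of all regions) and 13 with Reactivated higher (15.4% of all regions). The count of lower calls was 40 (6.06%) without Reactivated replicate 2 and 36 (5.45%) without Reactivated replicate 3, beside 6.23% and 4.59% of all tested regions. It was 0, with 0 higher, when the fit held each library's share of reads in regions, which called 0 of all tested regions as well (members, 97 lower and 7 higher at an unadjusted p under 0.05). On the deposited RPKM scale the median turned to 0.13, beside 0.39 over all tested regions, with 30 members called lower (4.55%) and 36 higher (5.45%). On that scale 4.81% of all tested regions were called lower and 23.9% higher.

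Named falls of Reactivated from Basal included chr7:51614856-51615006, whose levels are given above, at -1.65 ± 0.23 (limma, Benjamini-Hochberg adjusted p = 0.00206). At chr7:31741888-31742021 (133 bases) Reactivated had 2.40, 1.03 and 0.767, against 3.63, 3.14, 4.57 and 3.78 in Basal. The groups did not overlap, though Reactivated replicate 1 was close to the lowest Basal library, and the log2 fold change was -1.40 ± 0.26 (limma, adjusted p = 0.00415). The other 4 regions were at -1.63 (chr7:17462342-17462495), -1.59 (chr7:34918286-34918453), -1.56 (chr7:37480273-37480446) and -1.25 (chr7:30102705-30102868). All 6 lost the call in the fit that held each library's share of reads in regions (limma, adjusted p = 0.0682 to 0.516), and their log2 fold changes were then -1.84 to -0.70. The call was also lost at chr7:17462342-17462495 without Reactivated replicate 2 or 3 or Basal replicate 2, and at chr7:30102705-30102868 without Reactivated replicate 2 or 3 or Basal replicate 3 (limma, adjusted p = 0.0508 to 0.0849).

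The 3 members called higher in Reactivated than in Basal fell outside the rule for naming and were named after their values were seen. At chr7:46971896-46972122 Reactivated had 1.14, 1.58 and 1.30, against 0.688, 0.504, 0.627 and 0.307 in Basal, a log2 fold change of 1.04 ± 0.27 (limma, Benjamini-Hochberg adjusted p = 0.0162). At chr7:35673943-35674260 the log2 fold change was 1.30 ± 0.35 (limma, adjusted p = 0.0185) and at chr7:29728905-29729094 it was 1.32 ± 0.38 (limma, adjusted p = 0.0244). These regions had at most 11 reads in a Basal library.

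Late against Early and Reactivated against Early were positive at most members. Both use the Early libraries that led to the choice of the segment, so their counts are given as a description. The p-values of single regions against Early below do not account for that choice. The members' median log2 fold change was 0.78 for Late and 0.89 for Reactivated, against 0.20 and 0.40 in the rest of chr7 and -0.03 and 0.01 over all tested regions. With limma and Benjamini-Hochberg adjusted p under 0.05, Late was called higher at 173 members (26.2%) and lower at 0, beside 0.454% higher and 0.262% lower among all tested regions. Reactivated was called higher at 285 members (43.2%) and lower at 0, beside 2.42% higher and 1.02% lower among all. At an unadjusted p under 0.05, 2 members were lower in Late and 1 in Reactivated. Every Late library was above every Early library at 426 members (64.5%; 7.62% of all regions) and below at 0 (7.65%). Every Reactivated library was above every Early library at 484 members (73.3%; 13.8% of all regions) and below at 1 (9.48%).

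These counts of calls moved with single libraries, as did those over all tested regions. For Late against Early, leaving out a library gave 20 without Late replicate 2, 31 without Late replicate 4, 47 without Early replicate 3, 72 without Late replicate 1, 80 without Late replicate 3, 114 without Early replicate 1 and 221 without Early replicate 2, beside 173 with all libraries. The higher calls over all tested regions were 65, 97, 151, 263, 211, 548 and 2847 in the same order, beside 782 with all libraries. For Reactivated against Early, 32 were called without Reactivated replicate 1, 73 without Early replicate 1 and 169 without Early replicate 3. The count was 173 without Reactivated replicate 3, 207 without Reactivated replicate 2 and 300 without Early replicate 2, beside 285 with all libraries. Over all tested regions 166, 389, 1637, 1650, 2491 and 8673 were called in the same order, beside 4164. At an unadjusted p under 0.05 the members higher in Late were 430 to 475 without single libraries of Late or Early and 477 with all, and those higher in Reactivated 421 to 496 without single libraries and 506 with all. The median log2 fold changes moved little, staying between 0.73 and 0.83 for Late and between 0.76 and 0.95 for Reactivated. In the fit that held each library's share of reads in regions, 275 members (41.7%) were called higher in Late, beside 1.52% of all tested regions. With Late averaged to 1 sample, 0 members and 0 of all tested regions were called in both comparisons (members, 313 and 496 higher at an unadjusted p under 0.05), and with only the 2 groups compared in the fit, 25 members (3.79%) were called higher in Late, beside 0.0488% of all tested regions, and 0 in Reactivated, as over all regions (members, 464 and 457 unadjusted).

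Among the regions that met the rule for naming, the largest rise of Late from Early was at chr7:28017861-28018262 (401 bases). Late had 2.39, 3.02, 2.14 and 2.05 there, against 0.183, 0.537 and 0.377 in Early, a log2 fold change of 2.14 ± 0.25 (limma, Benjamini-Hochberg adjusted p = 0.00268). Reactivated had 1.93, 0.786 and 0.890 and Basal 1.78, 1.70, 1.67 and 1.64. All Late libraries were thus the highest of the 14. At chr7:13063452-13064117 (665 bases) the log2 fold change was 1.78 ± 0.20 (limma, adjusted p = 0.00267), and at chr7:54094237-54094635 it was 1.76 ± 0.21 (limma, adjusted p = 0.00268). For Reactivated against Early the named rises were chr7:51697256-51697405 at 1.84 ± 0.22 (limma, adjusted p = 0.00551), chr7:52161053-52161193 at 1.77 ± 0.40 (limma, adjusted p = 0.0281) and chr7:26026100-26026354 at 1.77 ± 0.34 (limma, adjusted p = 0.0168). At chr7:26026100-26026354 Reactivated had 2.22, 2.16 and 1.66, against 0.289, 0.169 and 1.01 in Early, where replicate 3 was the highest. At chr7:52161053-52161193 Reactivated had 2.72, 2.84 and 0.729, against 0.262, 0.692 and 0.216 in Early. Reactivated replicate 3, with 8 reads, was thus close to Early replicate 2, with 9 reads. The calls at chr7:26026100-26026354 and chr7:52161053-52161193 were lost without Early replicate 1 or Reactivated replicate 1, and that at chr7:52161053-52161193 also without Early replicate 3 or Reactivated replicate 2 (limma, adjusted p = 0.0661 to 0.108). The call at chr7:52161053-52161193 was lost as well in the fit that held each library's share of reads in regions, with a log2 fold change of 1.65 (limma, adjusted p = 0.0550).

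Reactivated against Late, which shares no library with the contrast that led to the segment, gave few calls at the members and over all tested regions. Their median log2 fold change was 0.12, against 0.21 in the rest of chr7 and 0.05 over all tested regions, and without Reactivated replicate 1 it was -0.00872. With limma and Benjamini-Hochberg adjusted p under 0.05, 3 members (0.455%) were called lower and 2 (0.303%) higher, beside 0.358% lower and 0.709% higher among all tested regions. The groups did not overlap at 36 members (5.45%) with Reactivated lower and 56 (8.48%) with Reactivated higher, beside 6.28% and 12.0% of all tested regions. In the rest of chr7, 20 regions (0.719%) were called lower and 14 (0.503%) higher.

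Both higher calls were in regions that met the rule for naming. At chr7:30088686-30089906 (1220 bases) Reactivated had 1.38, 1.56 and 1.52, against 0.732, 0.793, 0.741 and 0.891 in Late. The groups were clearly apart, with 137 to 145 reads in Reactivated and 54 to 70 in Late, and the log2 fold change was 0.74 ± 0.17 (limma, Benjamini-Hochberg adjusted p = 0.0432). Early had 0.752, 0.723 and 0.929 at this region and Basal 1.71, 1.62, 1.99 and 1.79, so that Late and Early were low and Reactivated and Basal high. At chr7:51697256-51697405, whose levels are given above, the log2 fold change was 0.92 ± 0.21 (limma, adjusted p = 0.0420). Neither call held without any single library of the 2 groups (limma, adjusted p = 0.0737 to 0.157), with log2 fold changes of 0.71 to 0.79 at chr7:30088686-30089906 and 0.79 to 1.08 at chr7:51697256-51697405. The call at chr7:30088686-30089906 was also lost in the fit that held each library's share of reads in regions, at 0.78 (limma, adjusted p = 0.0507).

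The 3 members called lower in Reactivated than in Late did not meet the rule for naming and were named after their values were seen. At chr7:48140175-48140652 (477 bases) Reactivated had 0.489, 0.546 and 0.642, against 2.22, 1.76, 1.43 and 1.89 in Late. The groups were far apart there, with a log2 fold change of -1.35 ± 0.21 (limma, Benjamini-Hochberg adjusted p = 0.0105), and Late was the highest of the 4 groups, since Early had 0.385, 0.316 and 0.443 and Basal 0.652, 0.795, 1.27 and 0.837. A neighbour, chr7:48162961-48163318, stood at -1.80 ± 0.34 (limma, adjusted p = 0.0229), and chr7:36453040-36453526 at -1.49 ± 0.23 (limma, adjusted p = 0.0107). Without single libraries 0 to 2 members were called lower, beside 0.0424% to 0.0953% of all tested regions.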

How the data were processed

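The 14 libraries are ATAC-seq of sorted hippocampal nuclei. The authors deposited 1 table of RPKM values for 191271 regions. Per the submitters' processing notes, the build was mm9, and the tools, without role or order, included DESeq2, DiffBind, MACS2, SAMtools and Bowtie2 2.0. How regions were called (by library or pooled), whether duplicates were removed and whether cut sites were shifted are not given in the sources used here; such steps set which regions are listed and how many reads they hold. Positions are printed as in the table.

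Times region length, 100% of values were whole multiples of 1 step per library (tolerance 0.01), which gave the reads and totals quoted. RPKM was divided by the library median over all regions. The test was made on log2(value + 0.25), which understates changes of low regions, after leaving out the 10% of regions with the lowest mean. One limma fit (limma 3.58.1, R 4.3.3, intensity trend, robust) of 4 group means over all 14 libraries gave 2-sided p-values, adjusted by Benjamini-Hochberg over 172143 regions in each of 6 comparisons, threshold 0.05. Python 3.11.15, pandas 2.3.3, numpy 2.4.6 and matplotlib 3.10.9 did the rest. The fit was checked on simulated data with few changed regions, for the comparisons with Basal only. It recovered 78% to 90% of 4-fold changes, 2% to 8% of 2-fold changes and 0% of 1.5-fold and 1.25-fold changes, with 1 to 8 false calls. Recovery with many changed regions, or in comparisons without Basal, was not simulated. A small number of calls does not show that smaller changes were absent.

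Members, lists and rules were chosen with earlier results of these data known. The rule for named regions asked for an adjusted p below 0.05, no overlap between the groups, and a mean over the median of tested regions: the 6 largest falls and 3 largest rises against Basal, 3 and 3 in the other comparisons, and the 5 members of highest mean level. Between replicates, the mean chi-square of reads per region (1 for sampling noise) was 1.72 to 1.94 in Late and 2.25 to 6.45 in the other groups; the Late libraries were counted as 4 samples and, as an alternative, averaged. No mm9 genome or annotation was used here, so gene names and sequences are left out.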

Additional observations from a re-analysis of the deposited data

How the results depend on the processing

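Other pseudocounts, no filter on low values, other scalings, a fit of only the 2 groups compared, the replicate block, the average of the Late libraries, leaving out each library and, chosen after seeing the data, a covariate for each library's share of reads in regions were tried. For Early against Basal, the members' median log2 fold change was -1.31 with a pseudocount of 0.1, -0.70 with 1 and -0.77 on the deposited RPKM scale. On that scale 340 members (51.5%) were called lower, beside 1.45% of all tested regions. Without single libraries 415 to 516 members were called lower and 0 higher, with medians of -1.20 to -1.11. The segment's level, Early over Basal, was -0.95 as a mean of log2 values and -1.54 to -1.39 without single libraries, and the median bin over tested regions was -1.14. On the RPKM scale the medians turned to 0.00804 (Late against Basal, 70 lower and 36 higher) and 0.13 (Reactivated against Basal, 30 lower and 36 higher). Of all tested regions 6.07% and 4.81% were called lower there, and 23.5% and 23.9% higher. For Late against Basal, 28 members (4.24%) were called higher with quantile normalization and 9 (1.36%) with the covariate, beside 16.3% and 9.17% of all tested regions. With Late averaged, where the lone sample is assumed to vary like the other groups, the members' median was -0.31. Without single libraries the counts were 130 to 178 lower (19.7% to 27.0%) and 7 to 16 higher (1.06% to 2.42%), with medians of -0.39 to -0.28. Of all tested regions 12.0% to 13.7% were then called lower and 9.97% to 12.3% higher. For Reactivated against Basal the covariate left 0 lower and 0 higher, as over all tested regions. Leaving out libraries gave 36 to 91 members lower (5.45% to 13.8%) and 1 to 4 higher (0.152% to 0.606%). Of all tested regions 4.59% to 9.39% were then called lower and 3.79% to 10.0% higher. The medians of the members were -0.35 to -0.17. Levels without single libraries were -0.49 to -0.37 for Late and -0.47 to -0.27 for Reactivated over Basal on the log2 scale. The cause of these changes was not tested.

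For Late against Early, a pseudocount of 1 called 115 members higher (17.4%, median 0.47), the RPKM scale 102 (15.5%) and quantile normalization 270 (40.9%). Of all tested regions these settings called 0.342%, 0.308% and 1.52% higher. With only the 2 groups 25 members (3.79%) were called and with the covariate 275 (41.7%), beside 0.0488% and 1.52%. Without single libraries 20 to 221 (3.03% to 33.5%) were called, beside 0.0378% to 1.65%, with medians of 0.73 to 0.83. With Late averaged the median was 0.81. For Reactivated against Early 0 members and 0 of all tested regions were called higher with only the 2 groups (457 members unadjusted). Without single libraries 32 to 300 members (4.85% to 45.5%) were called higher, beside 0.0964% to 5.04% of all tested regions. Called lower were then 0 to 1 members, beside 0.0285% to 4.75% of all. The median was 0.52 with a pseudocount of 1, 0.76 to 0.95 without single libraries and 0.89 with Late averaged. For Reactivated against Late, quantile normalization called 5 members lower (0.758%) and 0 higher, beside 0.310% and 0.0523% of all tested regions. With only the 2 groups the counts were 9 (1.36%) and 5 (0.758%), beside 0.871% and 2.84%. The covariate gave 1 higher (0.152%), beside 0.685%. With Late averaged the median was 0.099. None was called higher on the RPKM scale or with median-of-ratios scaling (68 and 54 unadjusted), beside 0.0238% and 0.611% of all tested regions. Without single libraries 0 to 2 were lower and 0 higher, beside 0.0424% to 0.0953% lower and 0.00929% to 0.0430% higher of all tested regions. Unadjusted, 20 to 48 members were lower and 30 to 84 higher, with 48 lower and 30 higher without Reactivated replicate 1. The medians were -0.00872 to 0.19.

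Replicate numbers did not pair the libraries: deviations of same-numbered libraries from their group means correlated at -0.248 to 0.0586 (median -0.0287) over 19 pairs. With the replicate block, 491 members (74.4%) were called lower in Early and 164 (24.8%) in Late against Basal, beside 3.75% and 14.6% of all tested regions. In Late and Reactivated against Early 23 (3.48%) and 140 (21.2%) were called higher, beside 0.0436% and 0.580%. In Reactivated against Late 0 were called either way (26 lower and 57 higher unadjusted), beside 0.0453% lower and 0.00581% higher of all tested regions. For single named regions, 510 of 584 alternative values kept their call, 74 lost it and 0 changed direction. A median of 13 to 22 reads per member in Early limits what can be seen at single regions, more so at the narrowest.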
